A study of Mus musculus with 116 samples.

Results

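Fibroblast growth factor (FGF) receptors and the genes that FGF signaling switches on were followed through cortical development in cells with and without Eed. The 10 genes, of 53379 genes counted, were the receptors Fgfr1, Fgfr2 and Fgfr3, the ETS transcription factors Etv1, Etv4 and Etv5, the Sprouty inhibitors Spry1, Spry2 and Spry4, and the phosphatase Dusp6. They were read in the green libraries with at least 1000000 uniquely aligned reads that made up at least 60% of all reads, which were 55 of the 68 green libraries and of 116 libraries in all. The genes were chosen by name with earlier results of these data known, and the libraries were selected on their number and share of uniquely aligned reads, not on the level of any gene. Just inside the limits stood Eed-MADM replicate 9 at E12.5, with 60.0091% of its reads aligned uniquely, and control-MADM replicate 2 at E12.5, with 1157701 such reads. Just outside stood cKO-Eed-MADM replicate 1 at E12.5, with 43.0%, and Eed-MADM replicate 4 at E12.5, with 939352 reads. All 10 genes passed the filter on low counts at each age.

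RNA was measured by bulk Smart-Seq2, a method that copies polyadenylated RNA of few cells into full-length cDNA, in cells sorted from mouse neocortex. Mosaic analysis with double markers (MADM) labels the daughters of a dividing cell green or red when the arms of a chromosome, here chromosome 7, are exchanged, and it ties the color to the genotype of the cell. All mice carried the MADM-7 cassettes and Emx1-Cre, which is active in the progenitors of the dorsal forebrain that give rise to projection neurons and glia. In control-MADM (MADM7-GT/TG;Emx1-cre) all cells were Eed+/+. In Eed-MADM (MADM7-GT/TG,Eed;Emx1-cre) green cells, which are sparse, lacked Eed (Eed-/-), whereas red cells kept both copies, yellow cells kept 1 and the unlabelled tissue around them was heterozygous. In cKO-Eed-MADM (MADM7-GT,Eed/TG,Eed;Emx1-cre) all cells of the Cre lineage were Eed-/-. Green cells of the 3 paradigms had both copies of chromosome 7 from the father, and chromosome 7 holds Eed and Fgfr2. A sample came from pooled cortices of several mice of a mixed C57BL/6 and CD1 background, which the labels give as CD1. Tissue was taken from embryos (E12.5, then E13.5, then E16.5) and on the day of birth (P0). The youngest cells went into a different buffer at sorting than all later ones, so age and handling cannot be told apart there, and E12.5 was kept out of the tests between ages. From the youngest age to the oldest, control-MADM had 5, 2, 3 and 5 libraries. Eed-MADM had 8, 2, 5 and 9, and cKO-Eed-MADM had 4 at each.

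FGFs are secreted proteins that bind, together with heparan sulfate chains on the cell surface, receptor tyrosine kinases of the FGFR family. The bound receptor passes its signal through adaptors and RAS to the kinases RAF, MEK and ERK, and ERK activates transcription through ETS factors. Etv1, Etv4, Etv5, the Sprouty genes and Dusp6 are switched on by this route, and Sprouty proteins and DUSP6 then dampen it, which makes their RNA a common readout of ERK signaling. In the forebrain the pathway is known for patterning the cortex from its front, for keeping radial glia dividing and for the later making of glia. EED is a core subunit of Polycomb repressive complex 2 (PRC2), which places the repressive mark H3K27me3 and acts mostly at promoters rich in CpG, the base C followed by G.

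The 250 bases before the start are shown for the members with a RefSeq entry that rose at P0 in cKO-Eed-MADM (described further on), since PRC2 acts at CpG-rich promoters. They are printed 5′ to 3′ on the strand of the gene, from the RefSeq promoters of GRCm38.p6, with each CpG in capitals. RefSeq entries were matched by symbol for 7 of the 10 genes. Where a gene had several starts, the start whose window held no exon of a coding gene was used.
Spry1, chr3:37639697-37639946, plus strand: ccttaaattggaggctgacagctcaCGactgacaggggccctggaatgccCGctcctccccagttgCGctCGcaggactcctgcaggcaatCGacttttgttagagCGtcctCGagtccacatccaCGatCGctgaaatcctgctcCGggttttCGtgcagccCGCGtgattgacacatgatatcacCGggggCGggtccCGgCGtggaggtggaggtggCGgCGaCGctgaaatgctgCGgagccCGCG
Dusp6, chr10:99262981-99263230, plus strand: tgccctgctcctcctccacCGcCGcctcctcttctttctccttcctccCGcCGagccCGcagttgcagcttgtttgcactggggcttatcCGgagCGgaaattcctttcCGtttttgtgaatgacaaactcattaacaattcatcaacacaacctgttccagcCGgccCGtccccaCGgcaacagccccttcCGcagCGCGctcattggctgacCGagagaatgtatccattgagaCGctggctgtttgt
Etv5, chr16:22438369-22438618, minus strand: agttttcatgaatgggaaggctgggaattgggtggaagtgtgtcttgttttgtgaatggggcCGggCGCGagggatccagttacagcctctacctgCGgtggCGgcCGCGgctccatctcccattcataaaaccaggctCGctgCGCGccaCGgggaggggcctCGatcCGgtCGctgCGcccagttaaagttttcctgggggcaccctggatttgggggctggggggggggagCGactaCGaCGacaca
Fgfr2, chr7:130266809-130267058, minus strand: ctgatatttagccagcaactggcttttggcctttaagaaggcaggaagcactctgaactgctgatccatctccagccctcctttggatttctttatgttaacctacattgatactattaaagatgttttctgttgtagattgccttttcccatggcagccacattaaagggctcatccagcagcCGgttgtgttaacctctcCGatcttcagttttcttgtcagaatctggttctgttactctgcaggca
The windows held 23 CpGs in Spry1, 18 in Etv5 and 16 in Dusp6, against 2 in Fgfr2. Over all 32851 promoters of the table the median was 6 CpGs and the upper quartile 16. The ETS motif CCGGAA, searched on both strands, was in none of the 10 entries of the members and in 12% of all promoters, which says only that these letters are absent from the windows read. The Etv5 and Fgfr2 windows lie inside the span of their gene models and need not be the main promoter. The other Etv5 entry, at the outer end of the model, held 27 CpGs. Of members that did not pass the test at P0, Spry2 had 23 CpGs as well. The entries of Fgfr3 held 19 and 24 and those of Etv1 9 and 1.

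In the M21 annotation of GRCm38, Fgfr2 spans chr7:130162451-133123350 on the minus strand, a model of nearly 3 megabases that runs over other genes. Reads in exons shared with another gene were not counted for either, so that the Fgfr2 count leaves those exons out. Spry1 spans chr3:37639947-37644598, Dusp6 chr10:99263231-99267489 and Etv5 chr16:22381309-22439719, and all the members lie on separate chromosomes. Spry1 and Fgfr1 overlap antisense genes, and strand was not kept in the count used here. Library depth, as reads on genes, ran from 865832 to 2359317 at E12.5 and from 2784557 to 7249098 at the later ages. Counting intervals and floors of read counts below cover counting error only, since reads of amplified cDNA are not independent molecules. Levels are given as CPM, the count per 1000000 reads on genes, scaled by TMM within an age unless stated otherwise. Adjusted p denotes the Benjamini-Hochberg value over all genes tested from the quasi-likelihood test of edgeR, with 0.05 as the threshold. Log2 changes are followed by their standard error (SE), and other values are mean ± SD. Intervals of log2 changes are built from this SE, which includes the spread between libraries. They can differ slightly from the outcome of the test.

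Eed itself was read first, because it checks the labels. At P0 it stood at 29.8 ± 2.65 CPM in control-MADM, at 15.7 ± 3.21 CPM in Eed-MADM and at 11.8 ± 3.31 CPM in cKO-Eed-MADM. The count covers the whole gene, not its deleted part alone. The paper also left out samples that correlated poorly with their replicates or kept many reads in the deleted part. Neither limit was applied here. At E12.5, 2 of the 8 Eed-MADM libraries overlapped control-MADM, with the highest at 90.4 CPM against a lowest control of 80.8 CPM. No Eed-/- library overlapped control-MADM at E13.5, E16.5 or P0, and RNA of the gene remained at 9.22 CPM or more in each library of P0. The cells were then read against the marker lists of the Emx1 lineage. At P0 the summed level of the 12 radial glia markers ran from 2980 to 10107 CPM and that of the 9 projection neuron markers from 2307 to 10501 CPM over all 18 libraries. Interneuron markers summed to between 194 and 887 CPM there. The mean Pearson r of a library with the others of its group ran from 0.80 to 0.90 at E12.5 and from 0.91 to 0.95 at P0.

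Among control-MADM cells the members changed with age in opposite directions. The receptor Fgfr3 was the highest member per kilobase of exon at E13.5, with 43.3 ± 3.54 CPM per kb, ahead of Fgfr1, with 18.2 ± 0.17 CPM per kb. By P0 Spry2 led with 60.8 ± 16.4 CPM per kb, followed by Fgfr1, with 30.5 ± 6.42, and Etv4, with 27.9 ± 11.7 CPM per kb. Below Spry2, each pair of neighbors in this order at P0 overlapped within 1 SD, down to Spry4, Fgfr2 and Etv1, the 3 lowest, at 3.51 to 4.83 CPM per kb. The exon length of Fgfr2 is that of its long model.

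Fgfr3, whose protein binds several FGFs and marks dividing radial glia and astrocytes, fell between E13.5 and E16.5. In the scale set over the 3 later ages, the control-MADM libraries of Fgfr3 read 333 and 300 CPM at E13.5, then 20.7, 64.8 and 42.6 CPM at E16.5, and 50.8, 113, 117, 55.6 and 109 CPM at P0. The E13.5 libraries lay above all later ones. The log2 change from E13.5 to E16.5 was -2.90 (SE 0.46, adjusted p = 3.67e-05), and from E13.5 to P0 it was -1.82 (SE 0.39, adjusted p = 0.000563). Fgfr1, the most widely expressed receptor of the neural lineage, rose from E13.5 to E16.5, by 0.74 on the log2 scale (SE 0.21, adjusted p = 0.013). Fgfr1 did not pass the test from E16.5 to P0 (-0.06, SE 0.16), and its rise was lost without control-MADM replicate 1 at E13.5 (adjusted p = 0.151) and with all green libraries (log2 change 0.01, adjusted p = 0.994).

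The 3 ETS factors, Spry2 and Spry4 rose between E16.5 and P0. Etv4 read 8.41, 4.13 and 7.24 CPM at E16.5 and 41, 92.6, 79.1, 138 and 72.6 CPM at P0. Etv1, which also marks layer 5 neurons, read 4.13, 4.41 and 2.98 CPM and then 21.5, 38.4, 35.8, 68.8 and 63.1 CPM. The ages did not overlap for either gene, and the log2 changes were 3.65 (SE 0.63, adjusted p = 0.000111) for Etv4 and 3.56 (SE 0.45, adjusted p = 3.6e-07) for Etv1. Spry2 rose by 2.38 (SE 0.31, adjusted p = 8.93e-07), Spry4 by 2.81 (SE 0.57, adjusted p = 0.00065) and Etv5 by 1.54 (SE 0.34, adjusted p = 0.00143). In this step 5 of the 10 members rose and none fell, where 14.1% of the 13926 genes tested were called, 8.31% that rose and 5.77% that fell. The rise of Etv5 was lost with all green libraries (adjusted p = 0.0911). From E13.5 to E16.5, 1 member rose (Fgfr1) and 2 fell (Fgfr3 and Etv1), where 15.8% of genes were called, 8.44% that rose and 7.32% that fell. The fall of Etv1 was lost without control-MADM replicate 1 at E13.5 (adjusted p = 0.193). Spry1 and Dusp6 passed the test in none of the 3 steps. From E13.5 to P0, 6 members rose (Fgfr1, Etv1, Etv4, Etv5, Spry2 and Spry4) and 2 fell (Fgfr2 and Fgfr3), where 26.3% of genes were called, 14.9% that rose and 11.4% that fell. In that step Fgfr1 was lost without control-MADM replicate 1 at E13.5 (adjusted p = 0.106) and with all green libraries (0.947), which also lost Fgfr2 (0.168), and Etv1 and Spry4 without replicate 3 (adjusted p = 0.191 and 0.0732).

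**Figure D1:**
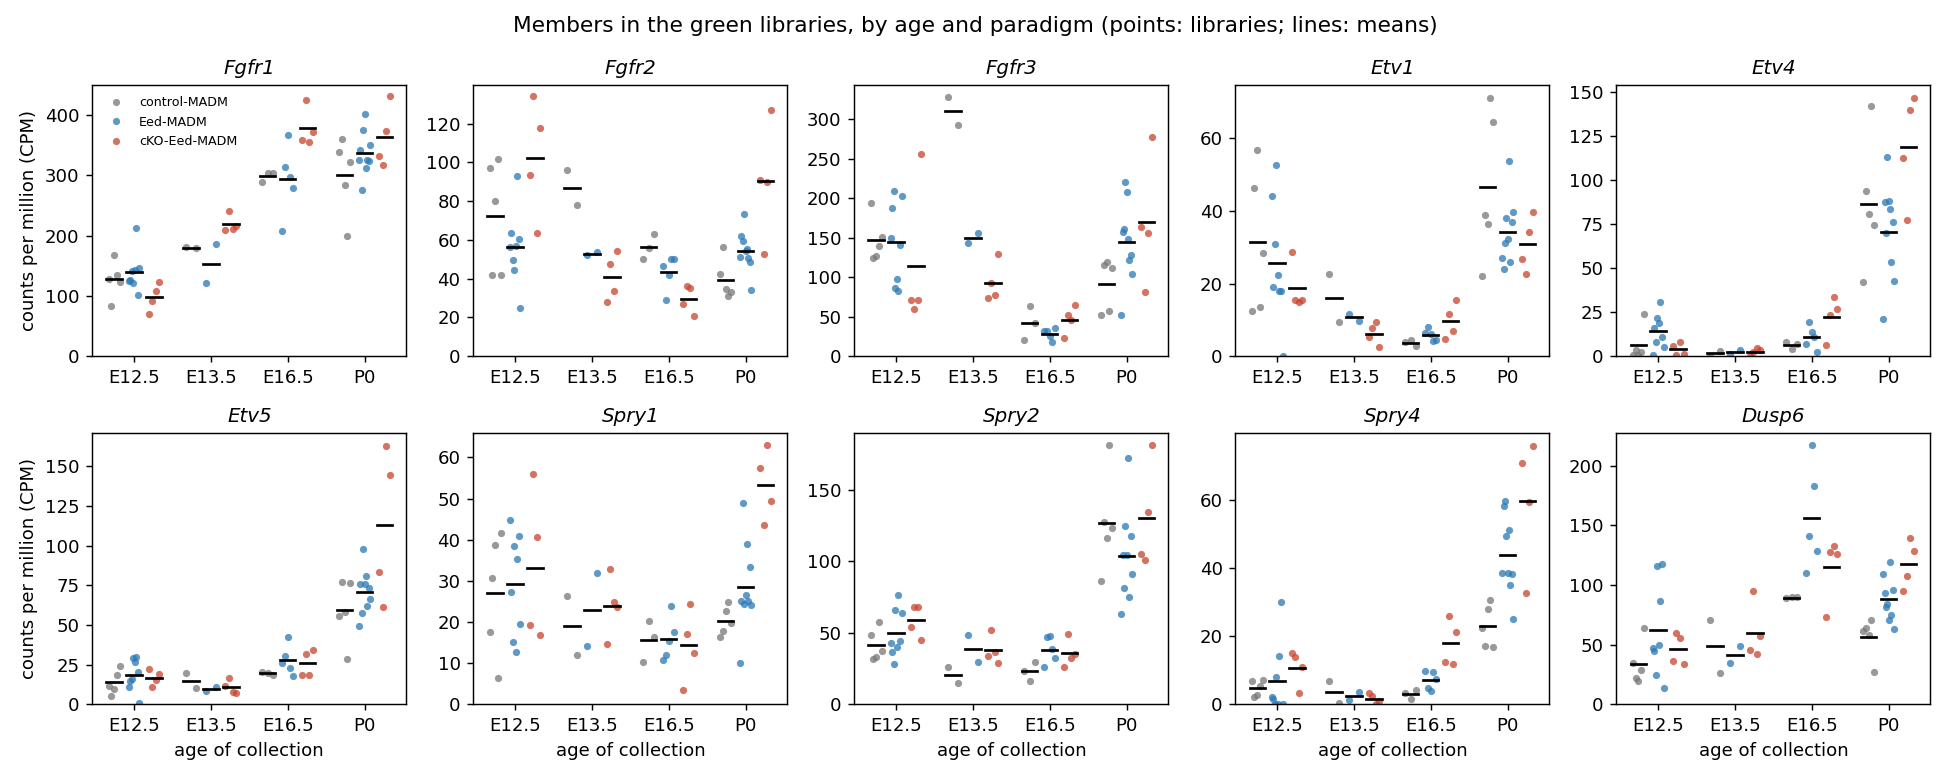
Level of each member in every green library, in CPM on linear axes that start at 0, by age of collection. Points are libraries (gray control-MADM, blue Eed-MADM, red cKO-Eed-MADM) and black lines are group means; Etv4, Spry2 and Spry4 stand highest at P0, and Fgfr3 in control-MADM is highest at E13.5, with 292 and 328 CPM.

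The comparison of cKO-Eed-MADM with control-MADM asks what loss of Eed in the whole cortical tissue does to these genes. At E12.5 no member passed the test, and neither did any of the 18100 genes tested (0% called), although 1292 genes had an unadjusted p under 0.05 and DESeq2 called 6. The members' log2 changes ran from -0.75 for Etv1 (SE 0.66) to 1.13 for Spry4 (SE 1.09). The median over the 10 members was 0.27. At this age the SE of a member was 0.25 to 1.09, which bounds what could be seen. Red blood cell markers summed to 2.9 to 2090 CPM in control-MADM and 25 to 11124.5 CPM in cKO-Eed-MADM. Markers of pericytes and meninges summed to 33 to 1360 CPM and 36.7 to 2588 CPM. The part of these cells in the member levels was not tested.

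At E13.5 the receptor Fgfr3 was lower in cKO-Eed-MADM. It read 328 and 292 CPM in control-MADM and 73.4, 92.3, 77.3 and 129 CPM in cKO-Eed-MADM. All 4 cKO-Eed-MADM libraries lay below both controls, at a log2 change of -1.74 (SE 0.28, adjusted p = 0.0476). Fgfr3 was the 1 member called, among 5 genes of 13448 (0.0372%), where DESeq2 called 289. The call was not stable, since leaving out cKO-Eed-MADM replicate 1, 2, 3 or 5, control-MADM replicate 1 or Eed-MADM replicate 2 gave adjusted p values of 0.0516 to 0.435. Fgfr2 also lay lower in each cKO-Eed-MADM library, at 27.9 to 54 CPM against 77.8 and 96.1 CPM, with a log2 change of -1.09 (SE 0.33) that did not pass (adjusted p = 0.218). In the 2 Eed-MADM libraries Fgfr3 read 144 and 156 CPM and Fgfr2 52 and 53.9 CPM, between the other paradigms for Fgfr3 and within the cKO-Eed-MADM range for Fgfr2. Neither passed against control-MADM there (0% of genes called, 824 with an unadjusted p under 0.05 and 40 called by DESeq2), nor did any member between cKO-Eed-MADM and Eed-MADM, where 0.0223% of genes were called (56 genes by DESeq2). The summed level of the 8 proliferation markers was 1135 and 1573 CPM in control-MADM and between 536 and 894 CPM in cKO-Eed-MADM. In Eed-MADM, where both receptors read lower than in control-MADM, it was 1052 and 1481 CPM and overlapped control-MADM. Astrocyte markers summed to 311 to 327 CPM in control-MADM, 157 to 212 CPM in Eed-MADM and 129 to 211 CPM in cKO-Eed-MADM. Projection neuron markers summed to 5706 to 6595 CPM in control-MADM, 6809 to 7583 CPM in Eed-MADM and 8293 to 8899 CPM in cKO-Eed-MADM. Radial glia markers overlapped, at 1734 to 1985 CPM in control-MADM, 1634 to 1836 CPM in Eed-MADM and 1258 to 1827 CPM in cKO-Eed-MADM. Intermediate progenitor markers also overlapped between control-MADM, at 1440 to 1727 CPM, and cKO-Eed-MADM, at 1005 to 1458 CPM. The part of these cells in the lower receptor levels was not tested. In bulk samples fewer cells of a type and less RNA per cell cannot be told apart.

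At E16.5 the inhibitor Spry4 was higher and the receptor Fgfr2 lower in cKO-Eed-MADM than in control-MADM. Spry4, which blocks the step from receptor to RAF, read 3.32, 1.63 and 4.16 CPM in control-MADM, 9.71, 4.8, 3.94, 9.55 and 7.45 CPM in Eed-MADM, and 12.5, 25.9, 11.9 and 21.3 CPM in cKO-Eed-MADM. The cKO-Eed-MADM libraries lay above all others, whereas Eed-MADM replicate 3 overlapped control-MADM. The log2 change of Spry4 over control-MADM was 2.53 (SE 0.53, adjusted p = 0.00388), or 5.79-fold. Over Eed-MADM it was 1.34 (SE 0.42), short of the threshold (adjusted p = 0.0615).

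Fgfr2 read 50.3, 55.9 and 63.2 CPM in control-MADM, 46.4, 29.2, 41.8, 50.4 and 50.3 CPM in Eed-MADM, and 26.7, 36, 35.4 and 20.9 CPM in cKO-Eed-MADM at E16.5. Every cKO-Eed-MADM library lay below every control, at a log2 change of -0.92 (SE 0.25, adjusted p = 0.0234). The call of Fgfr2 was lost without cKO-Eed-MADM replicate 4 (adjusted p = 0.0703), control-MADM replicate 2 (0.07) or control-MADM replicate 3 (0.106). With Spry4 higher and Fgfr2 lower, 2 of the 10 members were called, against 8.58% of the 13359 genes tested, 6.16% higher and 2.42% lower. The median log2 change was 0.38 over the members and 0.00 over all genes.

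The ETS factors did not pass at E16.5. Etv4 read 8.17, 4.07 and 7.06 CPM in control-MADM and 6.47, 23.4, 33.5 and 26.9 CPM in cKO-Eed-MADM, where replicate 1 lay among the controls. Its log2 change was 1.79 (SE 0.60, adjusted p = 0.0771). Dusp6, a phosphatase that switches ERK off, was more even in control-MADM, at 88.8, 89.5 and 90 CPM, than in cKO-Eed-MADM, at 73.4, 128, 133 and 126 CPM. In Eed-MADM it read 110, 141, 217, 183 and 128 CPM, above all controls, yet the log2 change of 0.80 (SE 0.22) did not pass the test (adjusted p = 0.149). No member passed in Eed-MADM against control-MADM, where 0.255% of genes did, nor between cKO-Eed-MADM and Eed-MADM, where 7.04% did. DESeq2 called Dusp6 in the former and Spry4 in the latter.

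At P0 5 of the 10 members were higher in cKO-Eed-MADM than in control-MADM and none was lower. The members were the receptor Fgfr2, the ETS factor Etv5 and the inhibitors Spry1, Spry4 and Dusp6, with log2 changes from 0.94 to 1.40. Of the 14161 genes tested, 24.2% were called, 14.2% higher and 10% lower. The median log2 change was 0.92 over the 10 members and -0.01 over all genes.

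Spry1 read 16.3, 17.9, 22.6, 24.9 and 19.7 CPM in control-MADM and 57.4, 43.5, 63 and 49.3 CPM in cKO-Eed-MADM at P0. In the 9 Eed-MADM libraries it ran from 9.97 CPM over a median of 25.2 CPM to 48.8 CPM. Its cKO-Eed-MADM and control libraries were far apart, and 1 Eed-MADM library reached into the cKO-Eed-MADM range. The log2 change of Spry1 was 1.40 over control-MADM (SE 0.28, adjusted p = 0.000797) and 0.90 over Eed-MADM (SE 0.25, adjusted p = 0.0106).

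Spry4 read 22.3, 17.2, 28, 30.5 and 16.8 CPM in control-MADM and 70.8, 32.7, 59.3 and 75.9 CPM in cKO-Eed-MADM at P0. In Eed-MADM it ran from 25.1 over a median of 38.6 to 59.6 CPM, and 8 of the 9 libraries lay above every control. Spry4 thus stood higher than in control-MADM in both mutant paradigms, by 1.39 in cKO-Eed-MADM (SE 0.26, adjusted p = 0.000332) and by 0.93 in Eed-MADM (SE 0.22, adjusted p = 0.0312). It was the 1 member called in Eed-MADM, where 1.75% of genes were called, and this call was lost without control-MADM replicate 1, 2 or 6 (adjusted p = 0.0522, 0.0743 and 0.0938). Between the mutant paradigms Spry4 differed by 0.45 (SE 0.23, 95% interval 0.01 to 0.90), which did not pass (adjusted p = 0.17).

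Dusp6 read 61, 64.1, 58.2, 70.5 and 27.3 CPM in control-MADM and 95.2, 107, 139 and 128 CPM in cKO-Eed-MADM at P0. Its groups did not overlap, and the low control, replicate 6, stood far from the others. The log2 change of Dusp6 was 1.07 (SE 0.22, adjusted p = 0.000783). In Eed-MADM it ran from 63.3 over a median of 84.4 to 119 CPM, at a log2 change of 0.65 (SE 0.19) that did not pass (adjusted p = 0.0752).

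Fgfr2 read 42.4, 56.1, 34.5, 31.2 and 33 CPM in control-MADM and 90.9, 52.8, 89.9 and 127 CPM in cKO-Eed-MADM at P0. It ran from 33.9 over a median of 54.1 to 73.2 CPM in Eed-MADM. Only replicate 2 of cKO-Eed-MADM overlapped the controls, and the log2 change was 1.20 (SE 0.23, adjusted p = 0.000354), or 2.29-fold. Over Eed-MADM Fgfr2 was higher by 0.73 (SE 0.20, adjusted p = 0.00927), a call lost without cKO-Eed-MADM replicate 4 (adjusted p = 0.0987).

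Etv5, which ERK signaling raises in many tissues, read 55.6, 76.9, 58.2, 28.8 and 76.2 CPM in control-MADM and 83, 61, 163 and 145 CPM in cKO-Eed-MADM at P0. Replicate 2 of cKO-Eed-MADM again lay among the controls. The log2 change of Etv5 was 0.94 (SE 0.26, adjusted p = 0.0111), which was lost without cKO-Eed-MADM replicate 3 (adjusted p = 0.0711). Over Eed-MADM it was 0.67 (SE 0.23, adjusted p = 0.0412), which was lost without cKO-Eed-MADM replicate 3 (adjusted p = 0.235) or 4 (0.178). With Spry1 and Fgfr2, Etv5 made 3 members higher in cKO-Eed-MADM than in Eed-MADM, where 19.5% of genes were called and 11.2% were higher.

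The other 5 members did not pass at P0. Fgfr3 read 52.3, 115, 120, 57.5 and 112 CPM in control-MADM and 164, 81, 156 and 277 CPM in cKO-Eed-MADM, at a log2 change of 0.90 (SE 0.35, adjusted p = 0.0684). For Fgfr1 it was 0.27 (SE 0.15), for Etv4 0.46 (SE 0.35) and for Spry2 0.04 (SE 0.24, 95% interval -0.43 to 0.52). Etv1 alone had a negative change, of -0.59 (SE 0.29, adjusted p = 0.142). In the plot of members by library, the paradigms overlap at P0 for each of these 5 genes.

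**Figure D2:**
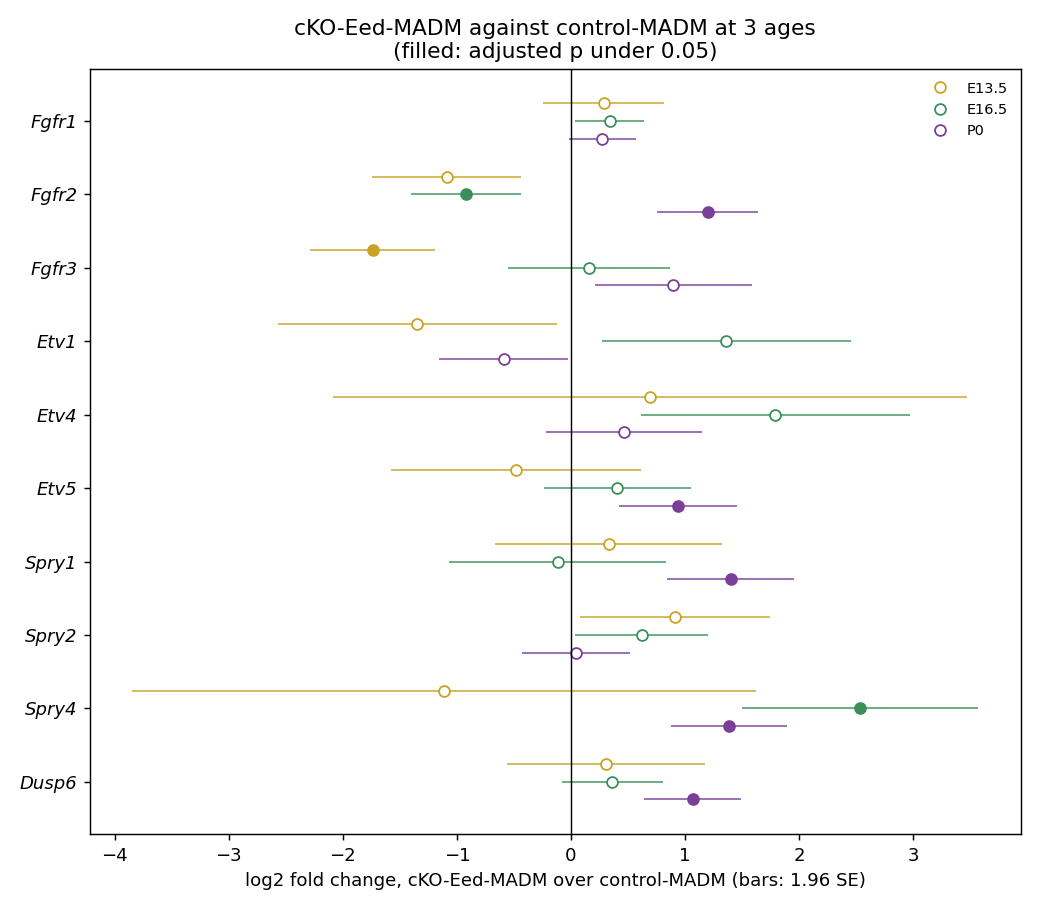
Log2 fold change of each member in cKO-Eed-MADM over control-MADM at E13.5 (yellow), E16.5 (green) and P0 (purple), with bars for the 95% interval and filled points where the adjusted p is under 0.05. Fgfr2 lies left of 0 at E16.5 (-0.92) and right of it at P0 (1.20), and the 5 filled points of P0 lie between 0.94 and 1.40.

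**Figure D3:**
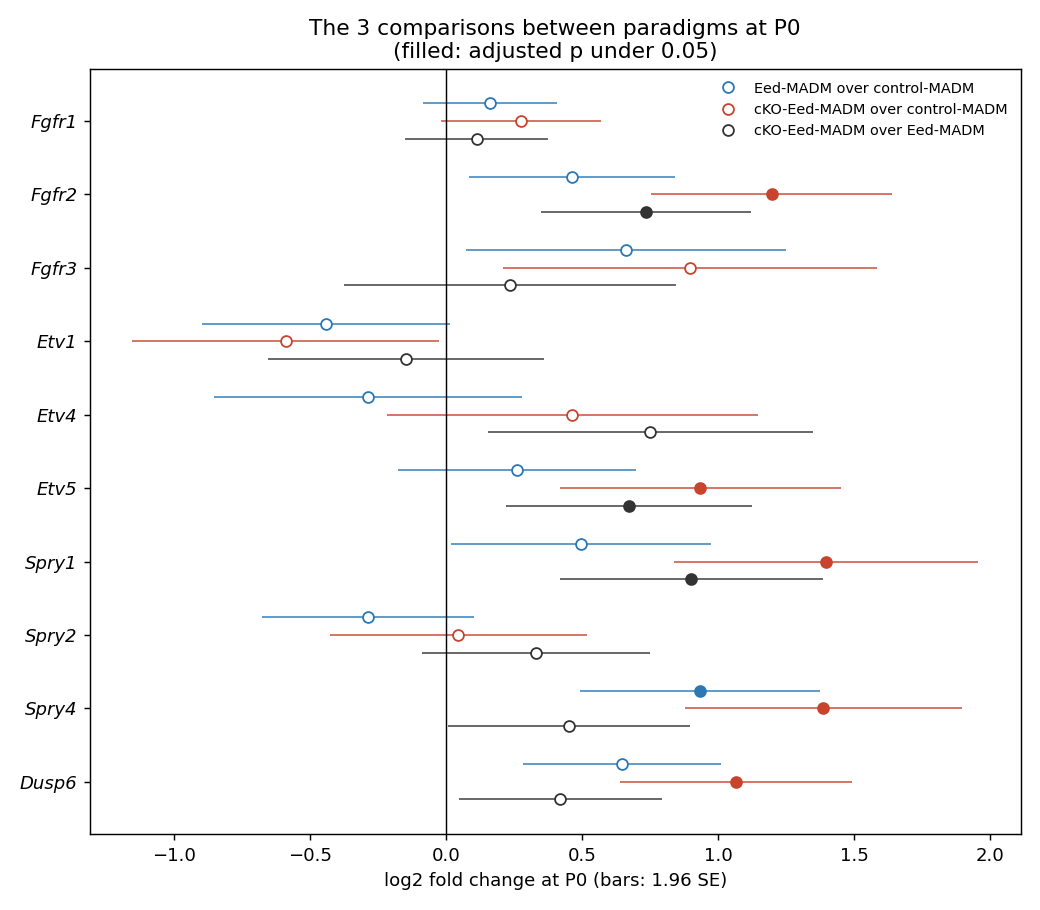
Log2 fold change of each member at P0 in Eed-MADM over control-MADM (blue), cKO-Eed-MADM over control-MADM (red) and cKO-Eed-MADM over Eed-MADM (black), with bars for the 95% interval and filled points where the adjusted p is under 0.05. Comparisons share libraries; 5 members are filled in red, 1 (Spry4, at 0.93) in blue and 3 in black.

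Fgfr2 changed its direction between E16.5 and P0, and the difference itself was tested. The difference between cKO-Eed-MADM and control-MADM at P0 exceeded that at E16.5 by 2.13 on the log2 scale (SE 0.35, adjusted p = 0.000235). Measured against Eed-MADM in place of control-MADM, the excess was 1.31 (SE 0.31, adjusted p = 0.0182). Fgfr2 was the 1 member called in each, against 1.17% and 1.61% of the 13926 genes tested. With all green libraries, shallow ones included, neither passed (adjusted p = 0.374 and 1). The excess over Eed-MADM was also lost without cKO-Eed-MADM replicate 4 of E16.5 (adjusted p = 0.0611) or of P0 (0.0905). Control-MADM itself went from 50.3 to 63.2 CPM at E16.5 to 31.2 to 56.1 CPM at P0, whereas cKO-Eed-MADM went from 20.9 to 36 CPM to 52.8 to 127 CPM. The difference for Etv1 pointed the other way, at -1.94 (SE 0.55), and did not pass (adjusted p = 0.0704). For Spry4 it was -1.12 (SE 0.71, adjusted p = 0.574), so that its larger change at E16.5 was not separated from that at P0.

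**Figure D4:**
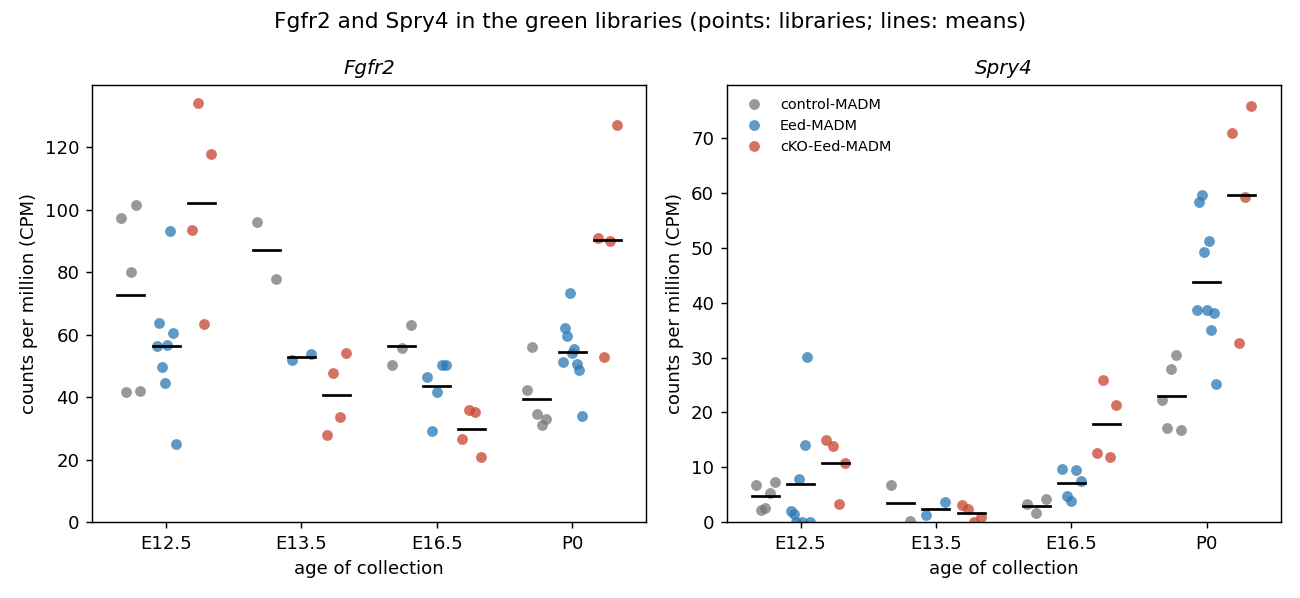
Fgfr2 (left) and Spry4 (right) in the green libraries at 4 ages, in CPM on linear axes from 0, with points for libraries and black lines for group means. For Fgfr2 the red cKO-Eed-MADM points lie below the gray controls at E13.5 and E16.5 and mostly above them at P0, and for Spry4 they lie above all controls at E16.5 and P0.

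Red and yellow cells gave libraries that the choice of green libraries did not use. They carry the same Eed genotype as green cells in control-MADM and in cKO-Eed-MADM, and 37 of 48 were within the same limits. They may come from the same pools of cortices as green cells, so that they are not independent replicates. Red cells had both copies of chromosome 7, which holds Fgfr2, from the mother, whereas green cells had them from the father. At E16.5 Spry4 read 2.56, 2.1 and 0 CPM in the 3 control-MADM libraries and 25.1 and 14.9 CPM in the 2 of cKO-Eed-MADM. They did not overlap, and Spry4 was the 1 member called, at a log2 change of 3.07 (SE 0.60, adjusted p = 0.00582), against 7.67% of the 13121 genes tested. The call was lost without the red cKO-Eed-MADM replicate 1 (adjusted p = 0.0784). Fgfr2 read 46.5, 48.3 and 44.8 CPM against 33.8 and 29.6 CPM, lower in both cKO-Eed-MADM libraries, and its log2 change of -0.58 (SE 0.25) did not pass (adjusted p = 0.2). At P0 no member passed among 4 control-MADM and 3 cKO-Eed-MADM libraries, where 0.368% of genes did. Fgfr2 read 90.6, 92 and 102 CPM in cKO-Eed-MADM there, above all controls at 31.1, 58.1, 42.9 and 4.89 CPM, at a log2 change of 1.47 (SE 0.64, adjusted p = 0.418). Spry1 lay above all controls as well, at 36.5 to 72 CPM against 0 to 34.6 CPM, with a log2 change of 1.63 (SE 1.06, adjusted p = 0.633). Spry4 was at 0 CPM in 1 of these cKO-Eed-MADM libraries and did not pass (0.24, SE 1.35, 95% interval -2.41 to 2.89). Yellow control-MADM replicate 2 and red cKO-Eed-MADM replicate 1 of P0 held reads of only 13181 and 13133 genes. Each other P0 library compared here held 18385 or more, and the part of this in the extreme values was not tested.

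The rest of the pathway was read from 7 lists. Of the 22 FGF ligands, 9 could be tested at E16.5 and 10 at P0. Fgf15, a ligand of the early forebrain, had no read in any control-MADM library at either age. In cKO-Eed-MADM it ran from 8.85 to 25.9 CPM at E16.5, at least 74.7-fold higher, and from 11.6 to 30.6 CPM at P0, at least 192-fold higher, taking 3 reads over the control group as the floor. Fgf3 had 2 reads in control-MADM and 120 in cKO-Eed-MADM at P0, a ratio of 89.2 with a counting interval of 24.2 to 745, and its cKO-Eed-MADM libraries ran from 0.392 to 18.2 CPM. Fgf1, which binds all the receptors, was higher at P0 (log2 change 4.25, SE 0.83, adjusted p = 0.000524). Fgf13, which stays inside the cell and binds sodium channels, not receptors, was higher at E16.5 (1.17, SE 0.20, adjusted p = 0.000838). Fgf12 was also higher at E16.5 and Fgf9 at both ages, and these are named only because the count of ligands called, 4 at each age, turns on them. Fgf15, Fgf3, Fgf1 and Fgf9 had a mean of at most 1.01 CPM in control-MADM and passed the filter on low counts through the libraries in which they were high, so that they could be called in 1 direction only and these counts say nothing of the direction of the ligands. In Eed-MADM, Fgf15 and Fgf3 were also higher than in control-MADM at P0, where Fgf15 ran from 0 over a median of 1.72 to 7.74 CPM.

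Most of the 16 other receptors and co-receptors tested passed at neither age. At E16.5 none was higher and 3 were lower, where 8.58% of all genes were called, and at P0 4 were higher and none lower, where 24.2% were. Gpc4 and Flrt3, a heparan sulfate proteoglycan and a partner of FGF receptors, were lower at E16.5 by log2 changes of -2.15 (SE 0.30, adjusted p = 8.79e-05) and -1.46 (SE 0.22, adjusted p = 0.000169). At P0 they were at 0.15 (SE 0.22) and 0.17 (SE 0.30). The proteoglycan Sdc4 and the receptor Fgfr4 were higher at P0, by 2.38 (SE 0.34, adjusted p = 1.69e-05) and 2.50 (SE 0.60, adjusted p = 0.00329). Fgfr4 stayed low throughout, at a mean of 8.38 CPM in cKO-Eed-MADM at P0.

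Of the 12 genes that make or edit heparan sulfate, 1 was higher and 2 were lower at both ages. Of all genes tested, 8.58% were called at E16.5 and 24.2% at P0, and the count at P0 is near the latter share. Sulf2, a sulfatase that trims 6-O-sulfates from the chains, rose from 12.5 to 14.7 CPM in control-MADM to 46.9 to 111 CPM at E16.5, and from 15.8 to 43.7 CPM to 120 to 237 CPM at P0. Its log2 changes were 2.41 (SE 0.34, adjusted p = 0.000116) and 2.76 (SE 0.25, adjusted p = 2.76e-08). The sulfotransferases Hs6st2, which adds 6-O-sulfates, and Hs3st1 were lower, Hs6st2 by -1.47 (SE 0.30, adjusted p = 0.00355) and -2.31 (SE 0.40, adjusted p = 0.000213) and Hs3st1 by -1.20 (SE 0.21, adjusted p = 0.000812) and -1.64 (SE 0.22, adjusted p = 6.62e-06). For Hs6st2 and Sulf2 the P0 libraries of cKO-Eed-MADM and control-MADM did not overlap.

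The kinases and adaptors between receptor and ERK changed little. None of 21 passed at E16.5, where 8.58% of all genes did. At P0 the adaptor Shc1 was higher by 1.73 (SE 0.36, adjusted p = 0.000965), and Plcg1, a phospholipase bound by the receptors, was lower, at a log2 change of -0.50 (SE 0.17, adjusted p = 0.0391). The median of this list was -0.11 at P0.

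Some of the other inhibitors and targets of ERK were higher, against 6.16% of all genes tested at E16.5 and 14.2% at P0. Of 12 other feedback inhibitors tested, 1 was higher at E16.5 (Dusp4) and 5 at P0, and none was lower. Il17rd, which holds FGF receptors in check, was higher at P0 by 1.98 (SE 0.47, adjusted p = 0.00291), Dusp5, a nuclear ERK phosphatase, by 1.53 (SE 0.37, adjusted p = 0.00329), Lrig1 by 1.41 (SE 0.36, adjusted p = 0.00664) and Errfi1, an inhibitor of EGF receptors, by 0.85 (SE 0.20, adjusted p = 0.00299). Of the ERK response genes and other ETS factors, 5 of 18 were higher and none lower at E16.5, and 10 of 20 were higher and 1 lower at P0. The median log2 change of this list was 0.39 at E16.5 and 0.98 at P0. Fos, an immediate early gene of ERK and of other signals, had the lowest adjusted p of the list, at a log2 change of 2.38 at P0 (SE 0.17, adjusted p = 7.71e-10). It ran from 738 to 1018 CPM in control-MADM, from 1232 to 2370 CPM in Eed-MADM and from 3400 to 5521 CPM in cKO-Eed-MADM, with no overlap between the 3 paradigms. Fos was also the 1 gene of the 7 lists that passed in Eed-MADM at E16.5. Ccnd1, the cyclin that carries growth signals into the cell cycle, was higher by 2.35 at E16.5 (SE 0.41, adjusted p = 0.000759) and by 2.02 at P0 (SE 0.25, adjusted p = 1.73e-06), the ETS factor Ets2 by 1.03 (SE 0.31, adjusted p = 0.0442) and 1.86 (SE 0.23, adjusted p = 1.55e-06), and Ier3 by 2.34 at P0 (SE 0.30, adjusted p = 2.84e-06). Fos and Ier3 also respond to the stress of dissociating tissue, and the part of that in their levels was not tested.

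**Figure D5:**
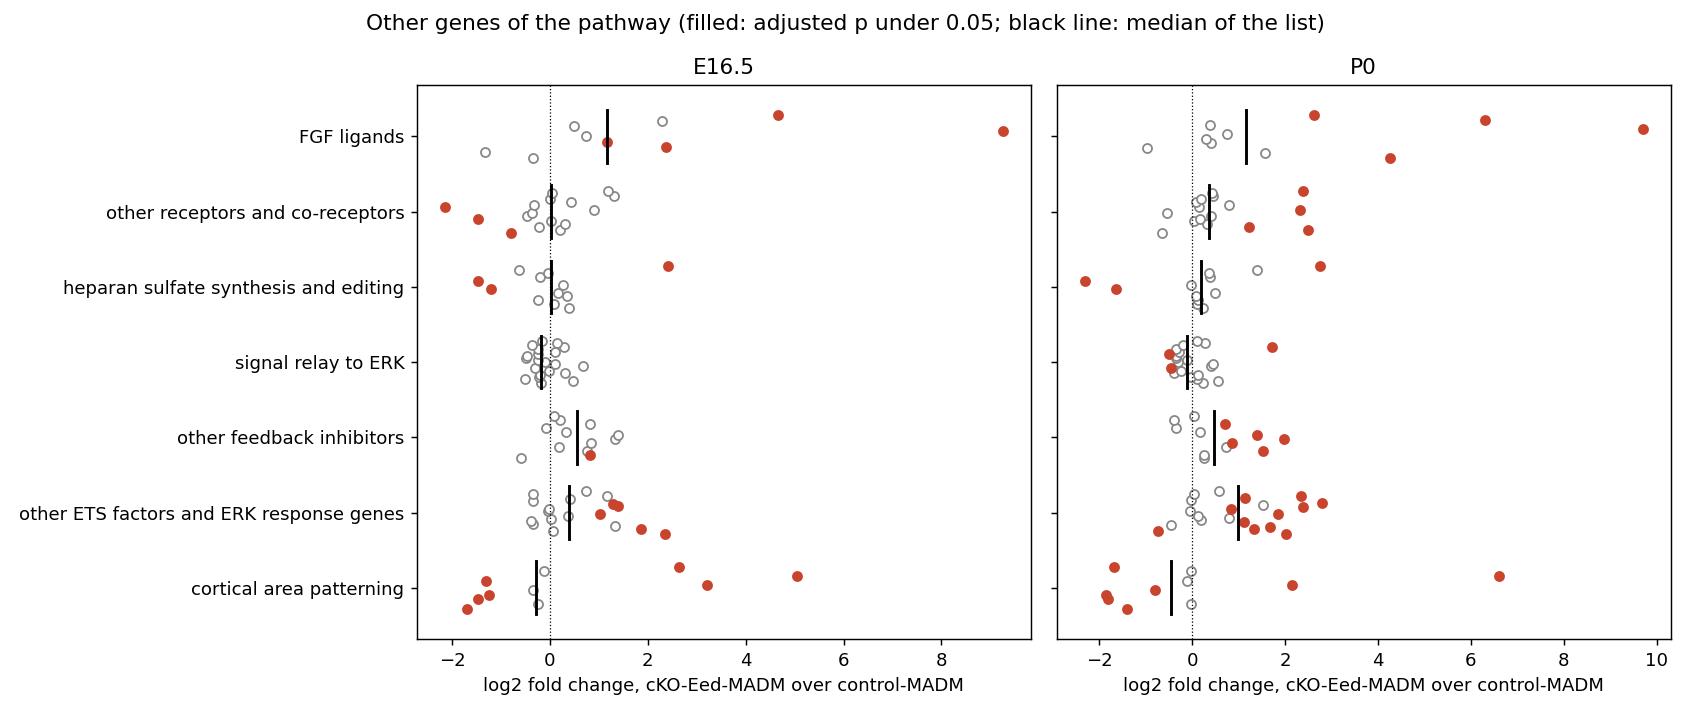
Log2 fold change in cKO-Eed-MADM over control-MADM of every tested gene of the 7 other lists at E16.5 (left) and P0 (right), with filled points where the adjusted p is under 0.05 and a black line at the median of a list. The points furthest right are Fgf15, whose control libraries hold no read so that its plotted value depends on the model and is no bound; the list of relay proteins stays near 0 (median -0.11 at P0), and that of ERK response genes has its median at 0.98 at P0.

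Genes that pattern the cortex under the influence of FGFs moved both ways, with 3 higher and 4 lower of 10 at E16.5 and 2 higher and 5 lower at P0. Of all genes tested, 6.16% were higher and 2.42% lower at E16.5, and 14.2% higher and 10% lower at P0. Lhx2 and Emx1, transcription factors of dorsal cortical tissue, were lower at P0, at log2 changes of -1.85 (SE 0.15, adjusted p = 5.43e-09) and -1.40 (SE 0.22, adjusted p = 5.25e-05). Otx2, normally silent in late cortical cells, was at 0 to 1.68 CPM in control-MADM and at 54.3 to 64.7 CPM in cKO-Eed-MADM (log2 change 6.61, SE 0.90, adjusted p = 1.35e-05). So near 0 in control-MADM, it could only be called higher.

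Markers of other cells differed between the same groups at P0, where 24.2% of all genes were called, 14.2% higher and 10% lower. Astrocyte markers were higher in cKO-Eed-MADM for 6 of 8, and their sum ran from 2734 to 4997 CPM against 724 to 2074 CPM in control-MADM. Microglia markers, of cells outside the Emx1 lineage, were higher for all 6 tested, and their sum ran from 133 to 319 CPM against 6.06 to 31.8 CPM. Markers of pericytes and meninges were higher for 4 of 5, at a sum of 97.4 to 254 CPM against 17.4 to 58.6 CPM, and of the 6 endothelial markers only 1 could be tested. Projection neuron markers were lower for 5 of 9 and none was higher. Proliferation markers were lower for 7 of 8, at a sum of 266 to 336 CPM against 484 to 677 CPM, and interneuron markers for 4 of 7, at 194 to 260 CPM against 372 to 887 CPM. Sums of oligodendrocyte markers overlapped at P0, at 655 to 1745 CPM and 846 to 2109 CPM. So did those of radial glia, at 4674 to 9768 CPM in cKO-Eed-MADM and 3904 to 10107 CPM in control-MADM. Intermediate progenitor sums overlapped as well, at 591 to 1084 CPM against 404 to 696 CPM. At E16.5, where Spry4 was higher and Fgfr2 lower, the interneuron sum ran from 250 to 490 CPM in cKO-Eed-MADM against 13.3 to 33.4 CPM in control-MADM, and 5 of 6 markers tested were higher. Oligodendrocyte markers summed to 105 to 340 CPM against 25.1 to 40.9 CPM, with 3 of 7 higher, and astrocyte markers to 233 to 635 CPM against 128 to 176 CPM. Projection neuron markers were lower in sum, at 8507 to 9769 CPM against 10286 to 11582 CPM, with 3 of 9 lower and 1 higher. Microglia markers were at 10.7 to 55.4 CPM against 2.49 to 6.78 CPM, with Csf1r at 0 in all controls. Radial glia sums overlapped at E16.5, at 1253 to 2336 CPM against 1118 to 1391 CPM. Intermediate progenitor sums were lower, at 409 to 579 CPM against 707 to 904 CPM. Of all genes, 6.16% were called higher and 2.42% lower at E16.5. Microglia and meningeal markers at P0, and interneuron and oligodendrocyte markers at E16.5, were low in control-MADM. They had little room for a lower call, so that their counts say nothing of direction. Astrocytes, oligodendrocyte precursors and meningeal cells all use FGF receptors and Sproutys. The part of these cells, and of progenitors, in the levels of Fgfr2, Etv5, Spry1, Spry4 and Dusp6 was not tested.

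Across the 38 green libraries of E13.5, E16.5 and P0, the genes whose level was most like that of a member were found by Pearson r on log2(CPM + 1) among 11821 genes. The libraries of an age share it, and genes that change with age share high r values. The nearest to Etv4 were Tspan7 (0.96), Hepacam (0.96) and Olig1 (0.95), and the nearest to Fgfr3 Sall1, Gja1 and Gas1 (0.89, 0.88 and 0.86), among them genes of glia. Etv5 was nearest to Rap1gap, Mtss1l and Atp1b2 (0.93, 0.93 and 0.92), Spry2 to Cd9, Acsbg1 and Slc38a3 (0.92, 0.91 and 0.91), Spry4 to Cacng5, Ncald and Atp1b1 (0.92, 0.92 and 0.91) and Etv1 to S100a13, Xylt1 and Slc38a3 (0.92, 0.91 and 0.91). Dusp6 was nearest to the immediate early genes Fos and Plk2 (0.77 and 0.76) and to Bend6 (0.75). Fgfr1 was nearest to Lrrc75b, Sdc3 and Pcdhgc3 (0.87, 0.86 and 0.85). Fgfr2 had the lowest r with its nearest gene of the 10 members, with Slc41a1, Wdr1 and Adamts1 at 0.74, 0.68 and 0.67. Genes near Spry1 included Adamts1 and Tpp1 (0.75 and 0.73). Among the members, Etv5 and Spry4 were closest (0.89) and Fgfr3 and Dusp6 most opposed (-0.47).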

How the data were processed

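The authors deposited read counts per gene of 116 libraries, made with STAR on mm10 (GRCm38) with its gene count mode, keeping reads that align to 1 place. The counts are not normalized, and the unstranded column of the deposited tables was used. The sources used here do not name the annotation release, and symbols were taken from GENCODE M21, which matched 53274 of 53379 identifiers. Rows that name no gene held 13.4% to 40.1% of the uniquely aligned reads of the libraries used and were left out. The main test was edgeR's quasi-likelihood test (version 4.0.16, in R 4.3.3) after TMM scaling, with the 3 paradigms of an age in a single model. It was run on genes whose mean count exceeded 10, or 1 at E12.5. Age steps and the difference between P0 and E16.5 came from a fit of the 38 libraries of the later ages, and red and yellow cells were fitted with color as a term. Likeness used log2(CPM + 1) and genes with a mean of at least 5 CPM. Named pathway genes are up to 4 of a list with the lowest adjusted p in cKO-Eed-MADM against control-MADM at E16.5 or P0, among those past the threshold, and some genes are not reported here. Members, lists and tests were chosen with earlier results of these data known. Nothing but pooling names the origin of replicates, so p-values measure the spread between pools. Alternatives were DESeq2 1.42.0, its size factors in edgeR, no filter, all libraries, smaller sets of libraries in the fit, no color term, a replicate block and leaving out each library of groups of 2 to 5. The fits were tested on simulated data.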

Additional observations from a re-analysis of the deposited data

Results flagged for a closer look

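Fgfr2 differed between ages under the same contrast, by a log2 difference of 2.13 for cKO-Eed-MADM against control-MADM and 1.31 against Eed-MADM, each tested as an interaction. Single libraries stood apart in 7 of 90 groups of member values screened with Dixon's criterion, where chance gives about 1 in 20. At E16.5 cKO-Eed-MADM replicate 1 was low in Dusp6 (73.4 CPM, next 126 CPM). At P0 control-MADM replicate 6 was low in Dusp6 (27.3 CPM, next 58.2 CPM). The other 5 were high libraries of E12.5, the shallowest age: Etv1 in cKO-Eed-MADM replicate 2 (28.7 CPM), Etv4 in control-MADM replicate 5 (24.2 CPM), Fgfr1 in Eed-MADM replicate 7 (212 CPM), Fgfr3 in cKO-Eed-MADM replicate 5 (256 CPM) and Spry4 in Eed-MADM replicate 8 (30.1 CPM).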

How the results depend on the processing

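The number of members called in each of 19 comparisons was computed under 114 other settings and 276 fits that left out a library, and 96 and 255 of these stayed within 1.5 times the count reported. None of the 31 log2 changes past the threshold reversed. With DESeq2 the count went from 0 to 1 in Eed-MADM against control-MADM at E16.5 (Dusp6) and in cKO-Eed-MADM against Eed-MADM at E16.5 (Spry4), from 1 to 2 in Eed-MADM against control-MADM at P0 (Dusp6 and Spry4) and from 1 to 2 for the difference between ages against control-MADM (Etv1 and Fgfr2). With no filter on low counts it went from 0 to 1 in Eed-MADM at E16.5 (Dusp6) and in red and yellow cells at P0 (Fgfr3), from 1 to 2 in red and yellow cells at E16.5 (Etv4 and Spry4) and for the difference between ages against control-MADM (Etv1 and Fgfr2), and from 3 to 5 from E13.5 to E16.5 in control-MADM. A fit of only the E16.5 and P0 libraries also gave 2 for that difference. With all green libraries the count was 0 in cKO-Eed-MADM against control-MADM at E13.5 and for both differences between ages, and 1 (Fgfr3) from E13.5 to E16.5. With all red and yellow libraries it was 2 at E16.5. The cause was not tested. Same-numbered replicates share a number in the labels. Over 36 such pairs the correlation of their deviations from group means ran from -0.17 to 0.38 and exceeded 0.1 in 9. Pairs with unlike numbers ran from -0.26 to 0.28. These overlapping ranges do not settle whether the numbers pair the samples. With the replicate block the count was 0 in cKO-Eed-MADM against control-MADM at E13.5, 1 at E16.5 (Spry4), and 0 for the difference between ages against Eed-MADM, and 16 of 19 counts stayed within 1.5 times. Among the calls it lost at P0 were Etv5 over control-MADM (adjusted p = 0.0638), Fgfr2 (0.169) and Etv5 (0.207) over Eed-MADM, and Etv1 against E13.5 (0.106). With no filter Etv5 over Eed-MADM was lost as well (0.0827), and with all green libraries Etv1 from E13.5 to E16.5 (0.0671). Leaving out a library gave 0 to 1 members in cKO-Eed-MADM against control-MADM at E13.5, 1 to 3 at E16.5 and 4 to 6 at P0, 0 to 1 in Eed-MADM at either of these ages, 0 to 1 and 1 to 4 in cKO-Eed-MADM against Eed-MADM at E16.5 and P0, 2 to 4 from E13.5 to E16.5, 1 to 2 and 0 to 1 for the differences between ages, and 0 to 2 in red and yellow cells at E16.5. Depth limits E12.5, whose libraries hold at most 2359317 reads on genes.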
